A study of Mus musculus with 18 samples.

Results

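The NF-κB subunits and their inhibitors were taken as the genes whose symbol was *Nfkb1*, *Nfkb2*, *Rel*, *Rela* or *Relb* for the subunits and *Nfkbia*, *Nfkbib*, *Nfkbie*, *Nfkbiz* or *Tnfaip3* for the inhibitors. All 10 were found among 56748 listed genes, and all 10 were among the 13691 genes with enough counts to be tested. RNA was sequenced from RAW 264.7 cells, an immortalized mouse macrophage line, in 6 conditions of 3 libraries each, 18 in all. The names of the data columns mark all 18 libraries as WT, a label that is not explained further. The study asked whether TBHQ (tert-butylhydroquinone, a synthetic phenolic antioxidant and food additive) changes macrophage activation by LPS (bacterial lipopolysaccharide) or PIC (Poly(I:C), a mimic of viral double-stranded RNA). Control cells were given neither TBHQ nor a stimulus, and TBHQ cells were lysed after 4 h with 5 µM. LPS cells received 0.1 µg/mL for 12 h and PIC cells 20 µg/mL for 12 h. LPS+TBHQ and PIC+TBHQ cells were first given 5 µM TBHQ over 4 h, followed by the same dose of the stimulus for 12 h. TBHQ was dissolved in a vehicle that none of the groups without TBHQ is stated to have received. TBHQ cells were lysed before the stimulated ones, and the study's legends can be read as giving the control 12 h, like the stimulated cells. Whether the cells given LPS or PIC alone waited 4 h for the stimulus is not stated in the sources used here. Vehicle, time and TBHQ therefore cannot be told apart in TBHQ against control, in LPS+TBHQ against LPS or in PIC+TBHQ against PIC, and the 2 pretreated groups differ from the control in all of these and in the stimulus. Libraries held from 14423390 to 18851626 counted fragments, and each of the 10 genes held at least 242 counts in every library.

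The labelled cell type was checked against marker genes. All 10 macrophage markers were tested, and their summed FPKM (fragments per kilobase of gene length, scaled to the counted fragments of the library and multiplied by a constant per library of 0.943 to 0.954 without a stimulus, 0.992 to 1.01 with LPS or LPS+TBHQ, 1.11 to 1.12 with PIC and 1.05 to 1.06 with PIC+TBHQ) was 6050 to 7030 per library, with *Lyz2* the most abundant at a mean of 4020. The epithelial list summed to at most 0.0284 FPKM and the fibroblast list to at most 0.122, while *Cd3e*, *Cd8a* and *Ly6g* had 0 counts in all 18 libraries. The T cell list summed to 2.18 to 4.94 FPKM, nearly all from *Lck* at a mean of 3.52, and the B cell list to at most 0.354, led by *Cd79a* at 0.155. The endothelial list summed to 1.16 to 1.75 FPKM, led by *Vwf* at 1.28, and the neutrophil list to 0.282 to 6.01, led by *S100a8* at 2.89. Some of these moved with the stimuli: the neutrophil sum from 0.903 in the control to 3.27 with LPS and 5.59 with PIC, and the T cell sum from 2.57 to 4.08 and 4.72. The macrophage sum was 6800, 6240 and 6480, but within it *Adgre1* went from 18.4 to 50.6 and 67.6 and *Csf1r* from 154 to 91.7 and 86.1. Some moved with TBHQ as well. *Fcgr1* was 14, 13.9 and 9.64 in the control, LPS and PIC groups and 5.77, 5.4 and 4.52 in their counterparts given TBHQ; *Adgre1* was 12.8, 40.1 and 46.6 in those counterparts, and *Csf1r* 174, 120 and 117. The T cell sum was 2.29, 3.04 and 4.54 there, the neutrophil sum 0.46, 3.53 and 3.82, and the macrophage sum 6200, 6930 and 6860. The part of such transcripts in the results below was not tested.

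In resting macrophages, dimers of Rel-family subunits are held in the cytoplasm by inhibitor proteins. Toll-like receptors and RNA sensors activate the IκB kinase complex, the inhibitors are phosphorylated and degraded, and the freed dimers enter the nucleus and switch on cytokine, chemokine and survival genes. Several inhibitors and subunits are themselves transcribed in response to NF-κB, which gives the pathway its negative feedback. The values here are RNA levels and hold no information on protein or on nuclear location.

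In edgeR's quasi-likelihood test, with p-values adjusted over all tested genes by the Benjamini-Hochberg method, 9 of the 10 genes rose with LPS against control, where 24% of all tested genes were higher and 24.1% lower at an adjusted p below 0.05. With PIC all 10 rose, against 28.6% of tested genes higher and 30.1% lower. The median log2 fold change of the 10 was 0.64 with LPS and 1.19 with PIC, beside medians of -0.0040 and -0.015 over all tested genes. At the threshold of the study (adjusted p below 0.01 and a log2 fold change above 2), *Nfkbiz* passed with LPS, and *Nfkbia*, *Nfkbiz* and *Tnfaip3* passed with PIC. The shares of tested genes above that threshold were 1.34% and 2.7%. The pass with LPS was lost with limma on log2(FPKM + 1), where 0 of the 10 passed. Log2 fold changes below are given ± SE from the spread of the 3 libraries a group. Comparing PIC with LPS directly, 10 of 10 were higher with PIC, with a median log2 difference of 0.59, while 14.9% of tested genes were higher and 12.8% lower.

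The control and stimulated libraries differed in the scaling they needed. When libraries were scaled by their totals alone, and not by edgeR's trimmed mean of M values (TMM), the median of all genes shifted to -0.23 for PIC against control, to -0.14 for PIC against LPS and to -0.15 for PIC+TBHQ against control. The calls for PIC against control then split into 2379 higher and 6635 lower, in place of 3917 and 4120, and those for PIC against LPS into 985 and 4373, in place of 2035 and 1752. For PIC+TBHQ against control they became 2364 higher and 5515 lower, in place of 3615 and 3563. For LPS and for LPS+TBHQ against control they became 2454 and 4558 (from 3283 and 3306), and 2281 and 4034 (from 2896 and 3087). All 10 genes stayed called as higher with PIC against control under that scaling, with a median of 0.97, and 9 with LPS, with a median of 0.55. For PIC against LPS 8 stayed called, and *Rel* (0.064, adjusted p = 0.296) and *Rela* (0.047, adjusted p = 0.561) did not.

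TBHQ before a stimulus went with lower levels. In LPS+TBHQ against LPS 8 of the 10 fell, where 11.7% of tested genes were higher and 12.2% lower. In PIC+TBHQ against PIC 7 fell, against 15.8% higher and 15.5% lower. The medians of the 10 were -0.29 after LPS and -0.51 after PIC, beside 0.0023 and 0.0089 over all tested genes. With total library size the calls of all genes moved from 1601 higher and 1673 lower to 2061 and 1401 after LPS, and from 2167 and 2118 to 3398 and 1436 after PIC. The number of the 10 called lower became 7 after LPS and 6 after PIC. TBHQ alone gave 6 higher and 1 lower, where 14.2% of tested genes were higher and 14.8% lower. The count of 6 fell to 3 without control replicate 2 and to 3 without TBHQ replicate 3, and was 3 at an adjusted p below 0.01. None of the 10 was above the study's threshold with TBHQ alone, nor was any in DESeq2 or limma, and 0.0803% of tested genes were. At an unadjusted p below 0.05 and no fold limit, 7 were higher. The share of all tested genes at that unadjusted p was not taken, so this count has no background.

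Levels stayed above the control after TBHQ. In LPS+TBHQ against control 9 of the 10 were higher (21.2% of tested genes were higher and 22.5% lower), and in PIC+TBHQ against control 10 of 10 (26.4% higher and 26% lower). Above the study's threshold, *Tnfaip3* passed in PIC+TBHQ, where 1.76% of tested genes did. In LPS+TBHQ the share of tested genes was 0.84% and *Nfkbiz* came nearest with 1.59 ± 0.085 (SE). In LPS+TBHQ 0 of the 10 passed in edgeR, DESeq2 or limma, against 9 higher at an unadjusted p below 0.05 with no fold limit. For that unadjusted p too the share of all tested genes was not taken. The comparisons with the control share its 3 libraries. In bulk RNA a change per cell and a change in the cells that make up the culture cannot be told apart.

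**Figure D1:**
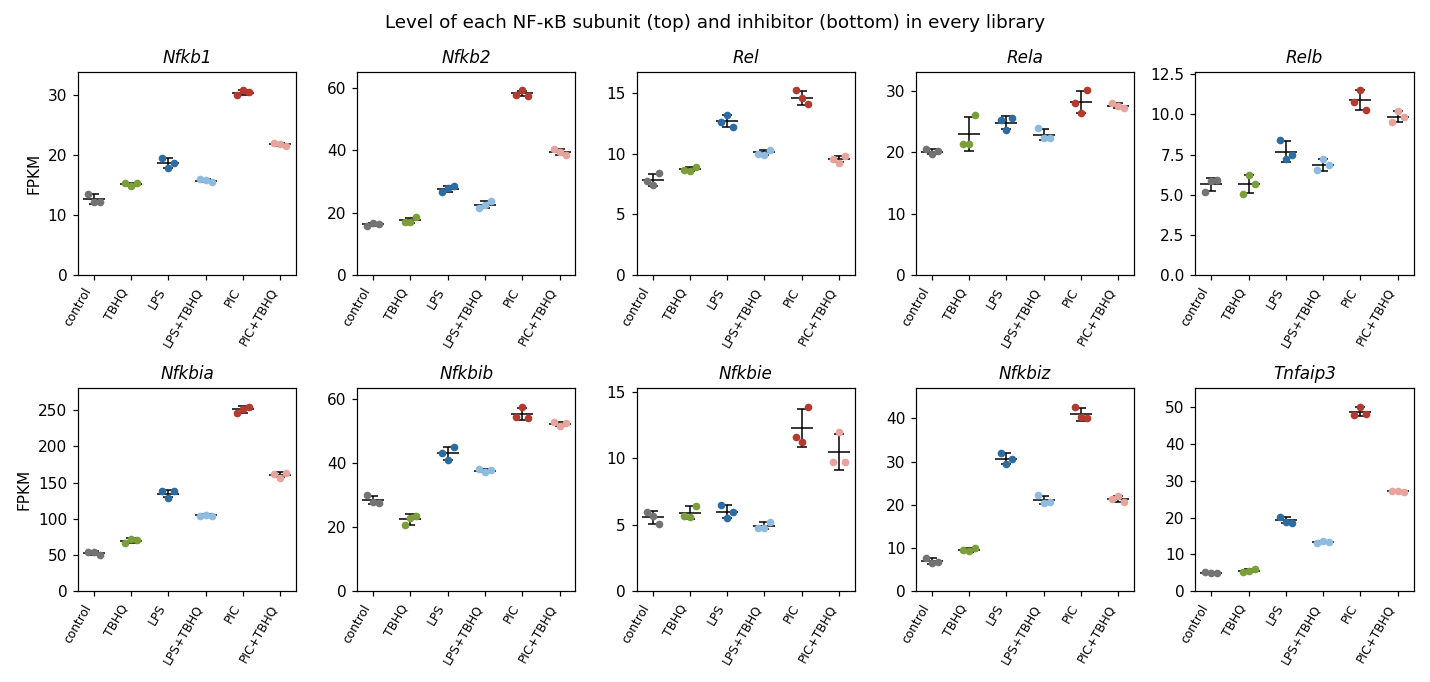
FPKM of the 10 genes (y axis, from 0) in the 18 libraries of the 6 conditions (x axis); points are libraries and black bars the mean ± SD of 3. As FPKM, the PIC libraries are the highest for the mean of every gene. For *Rela* the log2 difference of PIC+TBHQ from PIC turned to 0.0495 with total library size. *Nfkbia* in PIC reaches 246 to 255 FPKM against 49.6 to 54.8 in the control.

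*Nfkb1* (ENSMUSG00000028163, chromosome 3 from 135290416 to 135397308 on the minus strand) encodes the precursor of a DNA-binding subunit without a transactivation domain. Coordinates of genes are those deposited, whose build the labels name as GRCm38/mm39, and the starts of all 10 differ from a GRCm38 annotation. The FPKM of *Nfkb1* were 13.5, 12.2 and 12.1 in the control libraries, 15.3, 14.8 and 15.3 with TBHQ, 19.5, 17.8 and 18.7 with LPS and 16, 15.8 and 15.4 with LPS+TBHQ. They were 29.9, 30.7 and 30.4 with PIC and 22, 21.8 and 21.5 with PIC+TBHQ. As FPKM, constant included, the 6 conditions did not overlap (overlaps named here and below are of FPKM, and where levels lie close they can depend on that constant), with PIC highest, then PIC+TBHQ, LPS, LPS+TBHQ, TBHQ and the control. It rose on the log2 scale by 0.56 ± 0.064 (SE, adjusted p = 3.2e-14) with LPS, 1.25 ± 0.055 (SE, adjusted p = 7.5e-25) with PIC and 0.26 ± 0.056 (SE, adjusted p = 3.67e-06) with TBHQ alone. *Nfkb1* then fell by 0.25 on the log2 scale in LPS+TBHQ against LPS (adjusted p = 7.94e-06) and gave -0.47 ± 0.014 (SE, adjusted p = 4.03e-12) in PIC+TBHQ against PIC.

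*Nfkb2* (ENSMUSG00000025225, chromosome 19 from 46292759 to 46300824 on the plus strand) encodes the subunit precursor of the non-canonical pathway. The FPKM of *Nfkb2* were 15.7, 16.7 and 16.3 in the control libraries, 16.9, 17.1 and 18.6 with TBHQ, 26.5, 27.8 and 28.5 with LPS and 21.4, 22.4 and 23.8 with LPS+TBHQ. They were 57.7, 59.1 and 57.4 with PIC and 40.4, 39.4 and 38.4 with PIC+TBHQ. It had the largest rise of the 5 subunits with either stimulus. With LPS *Rel* was close, at 0.69 ± 0.06 (SE), and the ranges of both genes overlapped when 1 library was left out. No conditions of *Nfkb2* overlapped. Its log2 fold change was 0.76 ± 0.042 (SE, adjusted p = 2.7e-16) with LPS and 1.82 ± 0.029 (SE, adjusted p = 2.37e-28) with PIC, and PIC exceeded LPS by 1.06 ± 0.035 (SE, adjusted p = 1.35e-20). With TBHQ alone every library lay above the control, though at 0.11 ± 0.048 (SE, adjusted p = 0.0795) the difference was not called; it was at an adjusted p of 0.0493 when genes with a mean of at least 50 counts were tested. The differences in LPS+TBHQ against LPS and in PIC+TBHQ against PIC were -0.29 ± 0.055 (SE, adjusted p = 3.21e-06) and -0.55 ± 0.025 (SE, adjusted p = 5.64e-13).

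*Rel* (ENSMUSG00000020275, chromosome 11 from 23686847 to 23720970 on the minus strand) encodes c-Rel, a transactivating subunit prominent in blood cells. The FPKM of *Rel* were 7.72, 7.43 and 8.36 in the control libraries, 8.67, 8.59 and 8.91 with TBHQ, 12.6, 13.2 and 12.2 with LPS and 10, 9.88 and 10.3 with LPS+TBHQ. They were 15.2, 14.6 and 14.1 with PIC and 9.54, 9.26 and 9.76 with PIC+TBHQ. After TBHQ the PIC libraries were all below the LPS libraries. Without TBHQ they were all above them as FPKM, but the constant in the FPKM is larger with PIC, and the difference of PIC from LPS, 0.19 ± 0.048 (SE), became 0.064 (adjusted p = 0.296) with total library size. Its log2 fold change with PIC went from 0.88 ± 0.059 to 0.27 ± 0.055 (SE) when TBHQ came before it, and that with LPS from 0.69 ± 0.06 to 0.35 ± 0.052 (SE); the 0.27 became 0.13 (adjusted p = 0.0318) with total library size. Direct differences were -0.34 ± 0.038 (SE, adjusted p = 8.21e-07) after LPS and -0.61 ± 0.041 (SE, adjusted p = 1.16e-12) after PIC. TBHQ alone gave 0.15 ± 0.051 (SE, adjusted p = 0.0193), which was not called without control replicate 1 (0.14, adjusted p = 0.0608), control replicate 2 (0.11, 0.137) or TBHQ replicate 3 (0.14, 0.0726).

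*Rela* (ENSMUSG00000024927, chromosome 19 from 5687511 to 5698158 on the plus strand) encodes the main transactivating subunit of the canonical dimer. The FPKM of *Rela* were 20.5, 19.7 and 20.2 in the control libraries, 21.4, 21.4 and 26.1 with TBHQ, 25.2, 23.6 and 25.6 with LPS and 23.9, 22.4 and 22.3 with LPS+TBHQ. They were 28, 26.4 and 30.1 with PIC and 28.1, 27.5 and 27.3 with PIC+TBHQ. The stimulated libraries lay above the control, PIC and PIC+TBHQ overlapped, and so did LPS and LPS+TBHQ. *Rela* had the smallest rise of the subunits, 0.29 ± 0.039 (SE, adjusted p = 0.000103) with LPS and 0.47 ± 0.057 (SE, adjusted p = 1.58e-08) with PIC, the latter 0.25 (adjusted p = 0.000334) with total library size. TBHQ before the stimulus gave -0.12 ± 0.047 (SE, adjusted p = 0.159) after LPS and -0.019 ± 0.056 (SE, adjusted p = 0.838) after PIC, neither of them called; the value after PIC turned to 0.049 with total library size and to 0.013 without PIC replicate 3. TBHQ alone gave 0.19 ± 0.10 (SE, adjusted p = 0.0148), a call that rested on TBHQ replicate 3 at 26.1 FPKM: without it the value was 0.087 (adjusted p = 0.287), without control replicate 2 it was 0.17 (0.063), and with limma on log2(FPKM + 1) 0.18 (0.0514). PIC exceeded LPS by 0.18 (adjusted p = 0.0219), and this call was lost without PIC replicate 3 (0.13, 0.138) or LPS replicate 2 (0.15, 0.0997), with total library size (0.047, 0.561) and with limma on log2(FPKM + 1) (0.0517) or on log2(FPKM + 0.1) (0.0523). LPS+TBHQ exceeded the control by 0.18 (adjusted p = 0.0154), a call lost without LPS+TBHQ replicate 1 (0.14, 0.0858) or control replicate 2 (0.16, 0.0614) and with total library size (0.11, 0.123).

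*Relb* (ENSMUSG00000002983, chromosome 7 from 19340142 to 19363363 on the minus strand) encodes the partner of the *Nfkb2* product and was the subunit of lowest level in the control, at a mean of 5.65 FPKM. The FPKM of *Relb* were 5.16, 5.88 and 5.91 in the control libraries, 5.07, 6.2 and 5.66 with TBHQ, 8.4, 7.21 and 7.47 with LPS and 6.53, 7.25 and 6.84 with LPS+TBHQ. They were 10.8, 11.5 and 10.3 with PIC and 9.55, 10.2 and 9.82 with PIC+TBHQ. TBHQ and control libraries overlapped, as did LPS and LPS+TBHQ, while the PIC libraries were above all others as FPKM. *Relb* rose by 0.44 ± 0.09 (SE, adjusted p = 2.27e-05) on the log2 scale with LPS and 0.92 ± 0.079 (SE, adjusted p = 9.33e-13) with PIC. With TBHQ it was -0.0062 ± 0.10 (SE, adjusted p = 0.968) in unstimulated cells, -0.16 ± 0.078 (SE, adjusted p = 0.129) after LPS and -0.13 ± 0.055 (SE, adjusted p = 0.197) after PIC, and the test called none of these 3; the value of TBHQ alone turned to 0.064 without TBHQ replicate 1, to 0.022 without control replicate 2 and to 0.028 without control replicate 3. Over the other settings the value after PIC lay between -0.1455 and -0.0577. With 1 library left out, that after LPS lay between -0.2088 and -0.0987. LPS+TBHQ exceeded the control by 0.27 (adjusted p = 0.00545), which became 0.21 (0.0506) without control replicate 1.

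The makeup of the subunit RNA shifted with the stimuli. Summed over the 5 subunits, FPKM was 62.5 ± 0.587 (SD, n = 3) in the control, 91.4 ± 1.55 with LPS and 142 ± 0.303 with PIC, and 78.1 ± 0.438 and 108 ± 1.41 when TBHQ came before them. *Rela* held the largest share in the control, 32.2 ± 0.485% (SD, n = 3), and this was 27.1 ± 0.731% with LPS and 19.8 ± 1.31% with PIC. *Nfkb2* went the other way, from 26 ± 0.976% to 30.2 ± 1.27% with LPS and 40.9 ± 0.592% with PIC, where it held the largest share. With PIC+TBHQ *Nfkb2* held 36.5 ± 0.454%, *Rela* 25.5 ± 0.102% and *Rel* 8.8 ± 0.303%, the last beside 10.3 ± 0.42% with PIC and 12.5 ± 0.66% in the control. *Nfkb1* stayed between means of 20.1% and 21.7% in the 6 conditions and *Relb* between 7.65% and 9.12%. These shares are per gene length, describe RNA and were not tested.

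*Nfkbia* (ENSMUSG00000021025, chromosome 12 from 55536195 to 55539432 on the minus strand) encodes IκBα, the inhibitor that NF-κB itself induces to end a response. The FPKM of *Nfkbia* were 54.8, 53.9 and 49.6 in the control libraries, 66.2, 72.2 and 71.5 with TBHQ, 138, 129 and 139 with LPS and 104, 106 and 104 with LPS+TBHQ. They were 246, 252 and 255 with PIC and 162, 156 and 163 with PIC+TBHQ. It was the most abundant of the 10 genes per length in every condition, and no conditions overlapped. *Nfkbia* rose on the log2 scale by 1.35 ± 0.055 (SE, adjusted p = 1.35e-24) with LPS, 2.23 ± 0.048 (SE, adjusted p = 1.06e-31) with PIC and 0.40 ± 0.06 (SE, adjusted p = 3.77e-09) with TBHQ alone. After a stimulus the sign with TBHQ was the opposite, -0.37 ± 0.033 (SE, adjusted p = 4.86e-09) for LPS+TBHQ against LPS and -0.63 ± 0.026 (SE, adjusted p = 1.99e-15) for PIC+TBHQ against PIC.

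*Nfkbib* (ENSMUSG00000030595, chromosome 7 from 28457676 to 28466937 on the minus strand) encodes IκBβ, an inhibitor that is resynthesized more slowly. The FPKM of *Nfkbib* were 30, 27.9 and 27.6 in the control libraries, 20.6, 22.9 and 23.6 with TBHQ, 43, 41 and 45 with LPS and 38, 37.2 and 37.8 with LPS+TBHQ. They were 54.2, 57.6 and 54.1 with PIC and 52.7, 51.6 and 52.6 with PIC+TBHQ. TBHQ libraries lay below the control and all stimulated libraries above it. It was the member called lower with TBHQ alone, at -0.35 ± 0.07 (SE, adjusted p = 2.04e-06), and it rose by 0.59 ± 0.054 (SE, adjusted p = 2.51e-12) with LPS and 0.94 ± 0.049 (adjusted p = 1.68e-18) with PIC. TBHQ before LPS gave -0.19 ± 0.039 (SE, adjusted p = 0.00255). Before PIC the value was -0.07 ± 0.032 (SE, adjusted p = 0.279) and not called. Over the other settings it lay between -0.0882 and -0.0005. As FPKM the PIC+TBHQ libraries lay just below the PIC libraries, an order that can depend on the constant in the FPKM. The span of *Nfkbib* shares 778 bases with *Sirt2* on the opposite strand, which had 1121 to 1983 counts. The log2 fold changes of *Sirt2* had the sign of those of *Nfkbib* in 8 of 9 comparisons: -0.21 with TBHQ alone, 0.31 with LPS, 0.59 with PIC, 0.28 for PIC against LPS, 0.30 and 0.55 for LPS+TBHQ and PIC+TBHQ against control, and -0.011 and -0.045 for LPS+TBHQ against LPS and PIC+TBHQ against PIC. In the difference of TBHQ effects the signs differed, -0.034 for *Sirt2* and 0.12 for *Nfkbib*. Libraries were strand-specific, but the strand setting of the counting is not given in the sources used here, so reads in the shared bases may not be separated, and their part in the values of *Nfkbib* was not tested.

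*Nfkbie* (ENSMUSG00000023947, chromosome 17 from 45866629 to 45874095 on the plus strand) encodes IκBε, a further cytoplasmic inhibitor, and had the fewest counts of the 10. The FPKM of *Nfkbie* were 5.97, 5.7 and 5.03 in the control libraries, 5.66, 5.6 and 6.45 with TBHQ, 6.47, 5.53 and 5.99 with LPS and 4.79, 4.78 and 5.24 with LPS+TBHQ. They were 11.6, 11.2 and 13.9 with PIC and 9.71, 12 and 9.7 with PIC+TBHQ. Control, TBHQ and LPS libraries overlapped, whereas all PIC and PIC+TBHQ libraries were above them. The log2 fold change was 0.10 ± 0.10 (SE, adjusted p = 0.437) with LPS, not called, and 1.13 ± 0.12 (SE, adjusted p = 7.55e-13) with PIC, and the difference between the stimuli was 1.03 ± 0.11 (SE, adjusted p = 8.56e-11). With LPS the value ranged from 0.0347 to 0.1661 with 1 library left out, and its lowest over the other settings was 0.0136. The calls with TBHQ were near the threshold. LPS+TBHQ against LPS gave -0.28 ± 0.076 (SE, adjusted p = 0.0428), which became -0.23 (adjusted p = 0.186) without LPS replicate 1, -0.28 (0.0786) without LPS replicate 3, -0.26 (0.115) without LPS+TBHQ replicate 1, -0.26 (0.116) without LPS+TBHQ replicate 2, -0.26 (0.0651) with total library size, and had an adjusted p of 0.0744 with limma on log2(FPKM + 1) and of 0.0625 with 0.1 in place of 1. PIC+TBHQ against PIC gave -0.22 ± 0.14 (SE, adjusted p = 0.0499) with overlapping libraries. It was -0.14 (0.291) without PIC replicate 3, the highest at 13.9 FPKM, -0.19 (0.169) without PIC+TBHQ replicate 1 and -0.18 (0.174) without PIC+TBHQ replicate 3. The call was also lost with total library size (-0.15, 0.181), DESeq2 (0.0533), limma with 1 or 0.1 added to FPKM (0.0968 and 0.106), the fit of the PIC and PIC+TBHQ libraries only (0.0517) and at 0.01. It was lost as well without control replicate 1 or 2 (0.0507 and 0.0553), LPS replicate 3 (0.0514), TBHQ replicate 1 or 2 (0.05 and 0.0534) or LPS+TBHQ replicate 1 or 3 (0.0534 and 0.0522), among 17 alternatives in all.

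*Nfkbiz* (ENSMUSG00000035356, chromosome 16 from 55631738 to 55659262 on the minus strand) encodes IκBζ, a nuclear IκB protein that helps switch on secondary genes such as *Il6*. The FPKM of *Nfkbiz* were 7.7, 6.43 and 6.8 in the control libraries, 9.48, 9.25 and 10.1 with TBHQ, 32, 29.4 and 30.6 with LPS and 22.2, 20.5 and 20.6 with LPS+TBHQ. They were 42.7, 40.2 and 40 with PIC and 21.4, 22.1 and 20.7 with PIC+TBHQ. PIC exceeded LPS in every library, but after TBHQ the libraries of both stimuli overlapped at means of 21.4 and 21.1 FPKM. *Nfkbiz* rose on the log2 scale by 2.13 ± 0.084 (SE, adjusted p = 3.11e-27) with LPS, 2.54 ± 0.083 (SE, adjusted p = 4e-30) with PIC and 0.46 ± 0.085 (SE, adjusted p = 1.48e-07) with TBHQ alone. TBHQ before LPS gave -0.54 ± 0.049 (SE, adjusted p = 4.42e-11) and TBHQ before PIC -0.92 ± 0.041 (SE, adjusted p = 2.03e-17), the largest difference of the 10 in both comparisons. After LPS *Tnfaip3* was close, at -0.53 ± 0.038 (SE), and the ranges of both genes overlapped when 1 library was left out.

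*Tnfaip3* (ENSMUSG00000019850, chromosome 10 from 18876658 to 18891405 on the minus strand) encodes a ubiquitin-editing enzyme that shuts off signalling upstream of the IκB kinases. The FPKM of *Tnfaip3* were 5.17, 4.99 and 5.08 in the control libraries, 5.3, 5.54 and 5.97 with TBHQ, 20.2, 18.9 and 18.6 with LPS and 13.1, 13.6 and 13.3 with LPS+TBHQ. They were 47.8, 50.1 and 48.1 with PIC and 27.2, 27.1 and 27 with PIC+TBHQ. Libraries of the 6 conditions did not overlap, and the gene went from the lowest mean of the 10 in the control to rank 4 with PIC. The rise on the log2 scale was 1.92 ± 0.038 (SE, adjusted p = 5.44e-28) with LPS and 3.24 ± 0.026 (SE, adjusted p = 1e-35) with PIC, a difference of 1.33 ± 0.041 between the stimuli (SE, adjusted p = 1.53e-24). TBHQ before the stimulus gave -0.53 ± 0.038 (SE, adjusted p = 1.38e-12) after LPS and -0.83 ± 0.021 (SE, adjusted p = 8.28e-19) after PIC. TBHQ alone gave 0.14 ± 0.05 (SE, adjusted p = 0.0381), which was 0.092 (0.252) without TBHQ replicate 3, 0.13 (0.119) without control replicate 2, 0.14 (0.0842) without control replicate 3, 0.15 (0.0619) without TBHQ replicate 2, 0.14 (0.101) with no filter on low counts and 0.14 (0.0926) in a fit of the TBHQ and control libraries only.

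Among the cytoplasmic inhibitors, *Nfkbia* held 60.8 ± 0.739% (SD, n = 3) of the summed FPKM of *Nfkbia*, *Nfkbib* and *Nfkbie* in the control and 71.2 ± 0.708% with TBHQ, while *Nfkbib* held 32.8 ± 0.882% and 22.7 ± 0.478%. With LPS and PIC the *Nfkbia* share was 73.4 ± 0.247% and 78.8 ± 0.22%, and with PIC+TBHQ 71.9 ± 0.699%. *Nfkbie* never exceeded a mean of 6.4%. The ratio of these 3 inhibitors to the 5 subunits, both as summed FPKM, was 1.39 ± 0.074 (SD, n = 3) in the control, 1.4 ± 0.0645 with TBHQ, 2.01 ± 0.049 with LPS and 2.24 ± 0.0388 with PIC, and 1.89 ± 0.0161 and 2.07 ± 0.0412 with TBHQ before the stimulus. So the inhibitor RNA was higher relative to the subunit RNA with either stimulus, and the ratio was lower with TBHQ before it. These ratios were not tested.

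By FPKM, the order in the control was *Nfkbia*, *Nfkbib*, *Rela*, *Nfkb2*, *Nfkb1*, *Rel*, *Nfkbiz*, *Relb*, *Nfkbie* and *Tnfaip3*. *Rel* and *Nfkbiz* overlapped, as did *Relb* with *Nfkbie* and *Nfkbie* with *Tnfaip3*. With LPS it was *Nfkbia*, *Nfkbib*, *Nfkbiz*, *Nfkb2*, *Rela*, *Tnfaip3*, *Nfkb1*, *Rel*, *Relb* and *Nfkbie*, with an overlap between *Tnfaip3* and *Nfkb1*. With PIC it was *Nfkbia*, *Nfkb2*, *Nfkbib*, *Tnfaip3*, *Nfkbiz*, *Nfkb1*, *Rela*, *Rel*, *Nfkbie* and *Relb*, with overlaps between *Nfkb2* and *Nfkbib*, *Nfkb1* and *Rela*, and *Nfkbie* and *Relb*. With TBHQ alone *Rela* and *Nfkbib* overlapped at ranks 2 and 3, and *Nfkbie*, *Relb* and *Tnfaip3* at ranks 8 to 10. With LPS+TBHQ *Rela*, *Nfkb2* and *Nfkbiz* overlapped in turn at ranks 3 to 5. With PIC+TBHQ *Nfkb1* and *Nfkbiz* overlapped at ranks 6 and 7, and *Rel* had the lowest mean, 9.52 FPKM, and overlapped *Relb*, which overlapped *Nfkbie*.

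The remaining comparisons of levels give the same genes side by side. Log2 differences of PIC from LPS were 0.69 ± 0.036 for *Nfkb1*, 1.06 ± 0.035 for *Nfkb2*, 0.19 ± 0.048 for *Rel*, 0.18 ± 0.064 for *Rela* and 0.49 ± 0.081 for *Relb* (SE). Among the inhibitors they were 0.88 ± 0.035 for *Nfkbia*, 0.35 ± 0.048 for *Nfkbib*, 1.03 ± 0.11 for *Nfkbie*, 0.41 ± 0.045 for *Nfkbiz* and 1.33 ± 0.041 for *Tnfaip3* (SE), so that *Tnfaip3*, *Nfkb2* and *Nfkbie* differed by more than 1 between the stimuli, and the 0.35 of *Nfkbib* became 0.22 (adjusted p = 0.00022) with total library size. Over the other settings the lowest values were 0.9339 for *Nfkb2* and 0.8959 for *Nfkbie*, below that limit of 1, and 1.1972 for *Tnfaip3*. The doses are of different agents, so the difference is of these treatments and not of the receptors. Relative to the control, LPS+TBHQ gave 0.31 ± 0.056 for *Nfkb1*, 0.46 ± 0.051 for *Nfkb2*, 0.35 ± 0.052 for *Rel*, 0.18 ± 0.036 for *Rela* and 0.27 ± 0.076 for *Relb* (SE), and 0.98 ± 0.046 for *Nfkbia*, 0.39 ± 0.039 for *Nfkbib*, -0.18 ± 0.086 for *Nfkbie*, 1.59 ± 0.085 for *Nfkbiz* and 1.38 ± 0.021 for *Tnfaip3* (SE). *Nfkbie* is the gene not called there (adjusted p = 0.159). PIC+TBHQ gave 0.78 ± 0.055 for *Nfkb1*, 1.27 ± 0.033 for *Nfkb2*, 0.27 ± 0.055 for *Rel*, 0.45 ± 0.022 for *Rela* and 0.80 ± 0.068 for *Relb* (SE), and 1.60 ± 0.05 for *Nfkbia*, 0.87 ± 0.04 for *Nfkbib*, 0.90 ± 0.12 for *Nfkbie*, 1.61 ± 0.081 for *Nfkbiz* and 2.41 ± 0.015 for *Tnfaip3* (SE), each of them called with an adjusted p of at most 1.55e-05.

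The part of each response that was kept with TBHQ was described by the ratio of the log2 fold changes against control with and without TBHQ, which share the control libraries, and also as the part kept of the linear rise over the control. The picture depended on the scale. For LPS the log2 ratio lay between 50.9% (*Rel*) and 74.6% (*Nfkbiz*) over the 9 genes that rose, with a median of 62.2%, and the linear share between 45% (*Rel*) and 62.9% (*Nfkbia*), with a median of 58.1%. For PIC the log2 ratio ran from 31.1% (*Rel*) to 95.9% (*Rela*) over 10, with a median of 72.9%, and the linear share from 24.8% (*Rel*) to 95.2% (*Rela*), with a median of 55.5%. So the median for PIC was above that for LPS as a log2 ratio and below it as a linear share, while *Rel* kept least on both. Under scaling by total library size the log2 ratio for PIC became 18.9% for *Rel* and 120% for *Rela*. *Nfkbib* kept 92.6% and *Relb* 86.2% of the PIC response as log2 ratios, against 66.9% and 62.2% of the LPS response, and linear shares of 90.2% and 82.2% against 62.3% and 58.6%. *Nfkbia* and *Tnfaip3* had log2 ratios of 72.7% and 72.3% with LPS and 71.6% and 74.3% with PIC, and linear shares of 62.9% and 58.1%, and 54.9% and 51%. *Nfkb1* and *Nfkb2* had log2 ratios of 55.6% and 61.2% with LPS and 62.4% and 69.9% with PIC. Their linear shares were 50.8% and 54.9%, and 52% and 56%. *Nfkbiz* kept less with PIC, at a log2 ratio of 63.6% and a linear share of 42.8%, the latter beside 59.5% with LPS. A gene with a small response has an uncertain ratio.

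The difference of the TBHQ effects, PIC+TBHQ against PIC minus LPS+TBHQ against LPS, was tested directly. For 6 of the 10 genes the fall on the log2 scale was larger after PIC, where 1.01% of tested genes were called in that direction and 0.825% in the other. The differences were -0.38 ± 0.064 (SE, adjusted p = 0.000711) for *Nfkbiz*, -0.30 ± 0.043 (SE, adjusted p = 0.00142) for *Tnfaip3* and -0.27 ± 0.041 (SE, adjusted p = 0.0051) for *Nfkbia*. These are the 3 members called at an adjusted p below 0.01, and they stayed called at 0.05 in every alternative run. For *Nfkb1*, *Nfkb2* and *Rel* they were -0.22 ± 0.04 (SE, adjusted p = 0.0263), -0.25 ± 0.06 (SE, adjusted p = 0.0191) and -0.27 ± 0.056 (SE, adjusted p = 0.0261), and these calls depended on the setting. With total library size all 3 were lost (adjusted p of 0.0749, 0.0566 and 0.0691), and so were they with limma on log2(FPKM + 0.1) (0.071, 0.051 and 0.0514), *Nfkb1* also on log2(FPKM + 1) (0.0546). *Nfkb1* was not called without LPS replicate 3 (-0.22, 0.0506), LPS+TBHQ replicate 1 (-0.21, 0.0716) or LPS+TBHQ replicate 2 (-0.22, 0.0637). *Nfkb2* was not called without LPS replicate 1 (-0.22, 0.0729) or LPS+TBHQ replicate 3 (-0.21, 0.0797). *Rel* was not called without LPS replicate 1 (-0.27, 0.0568), LPS replicate 3 (-0.24, 0.0798), PIC replicate 1 (-0.25, 0.0591) or LPS+TBHQ replicate 3 (-0.25, 0.0656). The other 4 were not called, with values of 0.10 ± 0.073 for *Rela*, 0.038 ± 0.10 for *Relb*, 0.12 ± 0.051 for *Nfkbib* and 0.059 ± 0.16 for *Nfkbie* (SE). Those of *Relb* and *Nfkbie* turned negative without some libraries: *Relb* without LPS replicate 1 (-0.028), PIC replicate 3 (-0.020) or PIC+TBHQ replicate 2 (-0.0016), and *Nfkbie* without PIC replicate 2 (-0.012) or PIC+TBHQ replicate 2 (-0.063). Over all tested genes this comparison had 113 higher and 138 lower calls, which total library size made 235 and 74. The direction of a larger fall after PIC held for all 6 genes in each alternative. These are differences of log2 changes and were not set against the larger rises with PIC. As a log2 ratio, *Nfkb1*, *Nfkb2* and *Tnfaip3* kept more of the rise with PIC than with LPS. *Rel* and *Nfkbiz* kept less, and *Nfkbia* kept about the same.

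**Figure D2:**
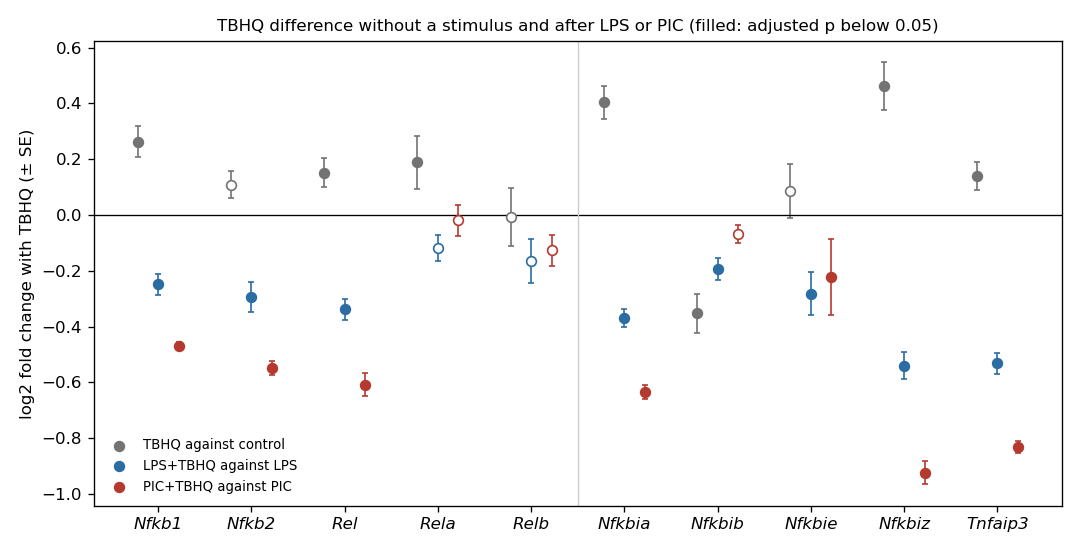
Log2 fold change with TBHQ (y axis, ± SE from 3 libraries a group) for the 10 genes (x axis) in unstimulated, LPS and PIC cells; filled points passed an adjusted p of 0.05. *Nfkbiz* and *Tnfaip3* lie lowest, at -0.92 and -0.83 after PIC, and *Nfkbia* and *Nfkbiz* highest, at 0.40 and 0.46, with TBHQ alone.

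Counts of other pathway genes called higher and lower are set against the shares of all tested genes called in each direction; the median log2 fold change of all tested genes lay between -0.015 and 0.0091 in the 9 comparisons. Of the IκB kinases and their activators, 11 genes that were all tested, LPS raised 4 and lowered 2 (against 24% and 24.1% of all tested genes), with a median of 0.082, and PIC raised 6 and lowered 2 (against 28.6% and 30.1% of all tested genes), with a median of 0.26. The counts with LPS lie near those shares. *Ikbke*, an inducible kinase related to the IκB kinases, had the largest rise, 1.56 ± 0.10 (SE, adjusted p = 2.87e-23) with LPS and 2.28 ± 0.10 (SE, adjusted p = 5.7e-29) with PIC, followed by *Ikbkg*, the regulatory subunit of the complex, at 0.46 ± 0.048 and 0.71 ± 0.076 (SE). *Tab1*, a partner of the kinase Map3k7, and *Map3k14*, the kinase of the non-canonical pathway, were lower, at -0.40 ± 0.088 and -0.36 ± 0.12 with LPS and -0.74 ± 0.10 and -0.48 ± 0.066 with PIC (SE). In PIC+TBHQ against PIC 1 of the 11 rose and 7 fell (against 15.8% and 15.5% of all tested genes), with a median of -0.22, led by *Map3k8* at -0.38 ± 0.10 (SE, adjusted p = 0.00582) and *Ikbkg* at -0.36 ± 0.085 (SE, adjusted p = 3.7e-06). The rise was of *Tab1*, 0.31 ± 0.094 (SE, adjusted p = 0.0117), lost without PIC replicate 1 (0.23, 0.114) or PIC+TBHQ replicate 1 (0.27, 0.071). In LPS+TBHQ against LPS 0 rose and 2 fell (against 11.7% and 12.2% of all tested genes), *Ikbkg* at -0.16 ± 0.048 (SE, adjusted p = 0.0411) and *Ikbke* at -0.14 ± 0.04 (SE, adjusted p = 0.0395), and both calls were lost with total library size (-0.13, 0.0945, and -0.11, 0.094), with no filter on low counts (0.0748 and 0.0772) and with limma on log2(FPKM + 1) (0.108 and 0.116) or log2(FPKM + 0.1) (0.106 and 0.139). They were lost without LPS+TBHQ replicate 1 (-0.17, 0.065, and -0.14, 0.0643), LPS+TBHQ replicate 3 (-0.13, 0.167, and -0.11, 0.163) and LPS replicate 3 (-0.16, 0.062, and -0.15, 0.0539) too, *Ikbkg* also without LPS replicate 2 (-0.12, 0.188) and *Ikbke* without LPS replicate 1 (-0.11, 0.191). TBHQ alone gave 4 higher and 0 lower (against 14.2% and 14.8% of all tested genes), with *Ikbkg* at 0.32 ± 0.057 (SE, adjusted p = 5.93e-05) and *Map3k14* at 0.23 ± 0.051 (SE, adjusted p = 0.0409) highest; the count was between 1 and 4 in the alternatives. *Map3k14* was not called without control replicate 1 (0.0568), 2 (0.18, 0.183) or 3 (0.0538), TBHQ replicate 1 (0.108), 2 (0.0648) or 3 (0.0806), with no filter on low counts (0.104), with DESeq2 (0.052) or with limma on log2(FPKM + 0.1) (0.0706). PIC exceeded LPS for 4 and was below it for 1 (against 14.9% and 12.8% of all tested genes), with *Ikbke* at 0.72 ± 0.045, *Tbk1*, a kinase of antiviral signalling, at 0.26 ± 0.059 and *Tab1* at -0.34 ± 0.12 (SE), the last not called without LPS replicate 1 (-0.29, 0.0528) or PIC replicate 1 (-0.26, 0.0689). LPS+TBHQ against control gave 4 higher and 1 lower (against 21.2% and 22.5% of all tested genes), *Ikbke* 1.42 ± 0.10, *Map3k8* 0.50 ± 0.079 and *Tab1* -0.33 ± 0.08 (SE). PIC+TBHQ against control gave 3 and 3 (against 26.4% and 26% of all tested genes), led by *Ikbke* 1.94 ± 0.10 and *Tbk1* 0.49 ± 0.028, with *Tab1* -0.43 ± 0.058 and *Map3k14* -0.29 ± 0.063 lowest (SE). With total library size LPS gave 4 lower, PIC 3 higher and 5 lower, with 2 higher and 0 lower in LPS+TBHQ against LPS, 3 higher in PIC+TBHQ against PIC, 2 higher and 2 lower in PIC against LPS and 5 lower in PIC+TBHQ against control; *Tbk1* in PIC against LPS became 0.13 and *Map3k14* in PIC+TBHQ against control -0.44.

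Of 20 receptor adaptors and ubiquitin ligases, LPS raised 11 and lowered 1 (against 24% and 24.1% of all tested genes), the latter 3 with total library size and 2 without control replicate 1, and PIC raised 12 and lowered 4 (against 28.6% and 30.1% of all tested genes), with medians of 0.21 and 0.32. *Traf1*, a signalling adaptor of the TNF receptor family, rose by 2.34 ± 0.072 (SE, adjusted p = 1.08e-29) and 3.55 ± 0.04 (SE, adjusted p = 8.99e-36), and *Irak3*, a kinase-like brake on Toll-like receptor signalling, by 1.68 ± 0.073 and 2.21 ± 0.073 (SE). *Rbck1*, part of the linear ubiquitin ligase, was lower with both, at -0.40 ± 0.10 and -0.62 ± 0.047, and *Ticam2*, an adaptor of the LPS receptor, with PIC at -0.41 ± 0.14 (SE). TBHQ before the stimulus gave 1 higher and 7 lower after LPS (against 11.7% and 12.2% of all tested genes) and 2 higher and 10 lower after PIC (against 15.8% and 15.5% of all tested genes), with medians of -0.079 and -0.18. *Traf1* fell most, -0.84 ± 0.064 and -0.80 ± 0.024, then *Birc3*, an inhibitor of apoptosis with ligase activity, -0.40 ± 0.052 and -0.55 ± 0.035 (SE). *Traf3*, a negative regulator of the non-canonical pathway, was higher, at 0.17 ± 0.077 (SE, adjusted p = 0.0282) and 0.30 ± 0.072 (SE, adjusted p = 0.000133). The value after LPS was not called without LPS replicate 3 (0.097, 0.25), LPS+TBHQ replicate 1 (0.16, 0.0701), LPS+TBHQ replicate 2 (0.17, 0.0679) or LPS+TBHQ replicate 3 (0.17, 0.0588), nor with limma on log2(FPKM + 1) (0.0628) or log2(FPKM + 0.1) (0.0641). *Rbck1* was higher after PIC, at 0.20 ± 0.037 (SE, adjusted p = 0.0055), a call lost without PIC+TBHQ replicate 1 (0.15, 0.0719). In the difference of TBHQ effects 1 of the 20 was called (against 0.825% and 1.01% of all tested genes), *Irak3* at -0.39 ± 0.085 (SE, adjusted p = 0.00559). TBHQ alone raised 4 and lowered 3 (against 14.2% and 14.8% of all tested genes), and the 4 became 2 without control replicate 2 or TBHQ replicate 3 and with limma on log2(FPKM + 0.1). It raised *Traf3* by 0.42 ± 0.025 (SE, adjusted p = 1.65e-07) and *Tirap* by 0.28 ± 0.074 (SE, adjusted p = 0.00393), and lowered *Ticam2*, -0.60 ± 0.12 (SE, adjusted p = 2.61e-05), and *Ripk1*, a kinase downstream of the TNF receptor, -0.21 ± 0.056 (SE, adjusted p = 0.00117). PIC exceeded LPS for 8 and was below it for 3 (against 14.9% and 12.8% of all tested genes), with *Traf1* 1.21 ± 0.063 and *Birc3* 0.78 ± 0.036 highest and *Ticam2* -0.42 ± 0.11 and *Traf3* -0.23 ± 0.10 lowest (SE). In LPS+TBHQ against control 9 were higher and 3 lower (against 21.2% and 22.5% of all tested genes), *Irak3* 1.80 ± 0.065, *Traf1* 1.5 ± 0.041, *Birc2*, a relative of *Birc3*, -0.30 ± 0.061 and *Rbck1* -0.29 ± 0.048 (SE). In PIC+TBHQ against control 12 were higher and 2 lower (against 26.4% and 26% of all tested genes), *Traf1* 2.75 ± 0.043, *Irak3* 1.95 ± 0.081, *Ticam2* -0.59 ± 0.13 and *Rbck1* -0.42 ± 0.057 (SE). Scaled by totals alone, the counts against control became 5 higher for LPS+TBHQ, and 7 higher and 5 lower for PIC+TBHQ, while *Ticam2* with PIC became -0.63 and *Traf3* in PIC against LPS -0.36.

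Of 15 other IκB-like proteins and negative regulators, LPS raised 10 and lowered 1 (against 24% and 24.1% of all tested genes), and PIC raised 10 and lowered 3 (against 28.6% and 30.1% of all tested genes), with medians of 0.15 and 0.26; with total library size LPS raised 6 and lowered 2 and PIC raised 5 and lowered 5. *Zc3h12a*, an RNase that degrades cytokine transcripts, rose by 1.78 ± 0.069 (SE, adjusted p = 1.52e-22) with LPS and 1.81 ± 0.05 (SE, adjusted p = 3.48e-23) with PIC, and *Tnip1*, a partner of the *Tnfaip3* product, by 1.16 ± 0.041 and 1.52 ± 0.036 (SE). Both were also the highest with TBHQ alone, 0.75 ± 0.09 (SE, adjusted p = 1.23e-10) and 0.61 ± 0.035 (SE, adjusted p = 5e-15), where 5 of the 15 were higher and 4 lower (against 14.2% and 14.8% of all tested genes). *Commd1*, which promotes removal of the *Rela* product, was lower with LPS, -0.26 ± 0.047 (SE, adjusted p = 0.0163), with PIC, -0.39 ± 0.044 (SE, adjusted p = 0.000406), and with TBHQ alone, -0.33 ± 0.053 (SE, adjusted p = 0.00426); the value with LPS was not called without control replicate 2 (0.0515), control replicate 3 (0.0558) or LPS replicate 2 (-0.22, 0.0783). *Otulin*, which removes linear ubiquitin chains, gave -0.19 ± 0.062 (SE, adjusted p = 0.00211) with PIC and -0.19 ± 0.039 (SE, adjusted p = 0.00659) with TBHQ, calls lost without PIC replicate 3 (-0.14, 0.0506) and control replicate 3 (-0.15, 0.0607). In PIC+TBHQ against PIC 2 rose and 6 fell (against 15.8% and 15.5% of all tested genes), with *Zc3h12a* at -0.38 ± 0.042 (SE, adjusted p = 2.55e-06) and *Tnip3* at -0.34 ± 0.045 (SE, adjusted p = 4.52e-07) lowest. Of the rises, *Pdlim2* at 0.22 ± 0.017 (SE, adjusted p = 0.0315) was not called without any library of PIC or PIC+TBHQ (adjusted p of 0.0763 to 0.109), with DESeq2 (0.0599) or with limma on log2(FPKM + 1) (0.0675) or log2(FPKM + 0.1) (0.0666), and *Nfkbid*, a nuclear IκB protein, at 0.17 ± 0.031 (SE, adjusted p = 0.0329) was lost without any of those libraries or LPS replicate 2 (0.0554 to 0.155), and with RLE size factors (0.0534), no filter (0.125), a fit of the PIC and PIC+TBHQ libraries only (0.0633) and DESeq2 (0.0913). In LPS+TBHQ against LPS 1 rose and 5 fell (against 11.7% and 12.2% of all tested genes), with *Bcl3*, a nuclear IκB protein, at -0.29 ± 0.12 (SE, adjusted p = 0.0142), *Tnip2* at -0.28 ± 0.05 (SE, adjusted p = 0.00422) and *Nfkbid* at 0.20 ± 0.021 (SE, adjusted p = 0.00866); *Bcl3* was not called without LPS replicate 1 (-0.27, 0.0606), LPS replicate 3 (-0.26, 0.0611) or LPS+TBHQ replicate 3 (-0.22, 0.12). PIC exceeded LPS for 6 and was below it for 2 (against 14.9% and 12.8% of all tested genes), *Nfkbil1* 0.48 ± 0.10, *Tnip1* 0.36 ± 0.039, *Nfkbid* -0.40 ± 0.025 and *Otulin* -0.20 ± 0.05 (SE), the last not called without PIC replicate 3 (-0.15, 0.0553). LPS+TBHQ against control gave 6 higher and 3 lower (against 21.2% and 22.5% of all tested genes), *Zc3h12a* 1.64 ± 0.059, *Tnip1* 0.96 ± 0.028, *Commd1* -0.50 ± 0.06 and *Tnip3* -0.27 ± 0.028 (SE). PIC+TBHQ against control gave 7 and 3 (against 26.4% and 26% of all tested genes), *Zc3h12a* 1.43 ± 0.053, *Tnip1* 1.21 ± 0.032, *Commd1* -0.49 ± 0.11 and *Cyld*, a deubiquitinase, -0.21 ± 0.035 (SE). With total library size 3 were lower in PIC+TBHQ against PIC, 6 lower in PIC against LPS and 4 higher in PIC+TBHQ against control, and without control replicate 3 the 4 lower with TBHQ became 2. Scaled by totals alone, *Commd1* and *Otulin* with PIC became -0.60 and -0.41, *Otulin* and *Tnip1* in PIC against LPS -0.33 and 0.23, and *Cyld* in PIC+TBHQ against control -0.36.

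The list of NF-κB target genes held 28, of which 25 were tested; *Il12b*, *Cxcl1* and *Vcam1* had too few counts. With LPS 22 were higher and 0 lower (against 24% and 24.1% of all tested genes), and with PIC 25 and 0 (against 28.6% and 30.1% of all tested genes), with medians of 2.28 and 2.88, and PIC exceeded LPS for 24 and was below it for 0 (against 14.9% and 12.8% of all tested genes); with total library size 1 was lower with LPS and 1 in PIC against LPS. *Il1b*, which encodes a pyrogenic cytokine, had at most 2 counts in any control library and 1079 to 1444 with LPS, at least 435-fold higher against a floor of 3 counts per library, and at least 1240-fold higher with PIC. *Csf3*, a granulocyte growth factor, rose by 8.06 ± 0.42 (SE, adjusted p = 5.61e-37) with LPS. *Il1a* had at most 3 counts in a control library and was at least 451-fold higher with PIC. With these genes and *Csf2* (0 counts in the control) at their bounds, the medians stay the same. TBHQ before the stimulus raised 1 and lowered 23 of 25 after LPS (against 11.7% and 12.2% of all tested genes) and raised 0 and lowered 24 after PIC (against 15.8% and 15.5% of all tested genes), with medians of -0.58 and -0.80. Among those with a mean of at least 50 counts *Il1a* and *Il1b* fell most. *Il1b* differed by -3.00 ± 0.18 (SE, adjusted p = 8.04e-21) after LPS and -3.19 ± 0.12 (SE, adjusted p = 4.36e-23) after PIC, and *Il1a* by -3.85 ± 0.29 and -3.07 ± 0.041 (SE). *Csf2*, with a mean of 19.4 counts, gave -3.72 ± 0.38 (SE, adjusted p = 1.11e-09) after PIC, from 77 to 118 counts to 4 to 10, and was at least 6.34-fold lower after LPS against the floor. *Sod2*, the mitochondrial superoxide dismutase, was the gene that rose after LPS, 0.14 ± 0.036 (SE, adjusted p = 0.00207). With TBHQ alone 8 were higher and 8 lower (against 14.2% and 14.8% of all tested genes), with a median of -0.026: *Csf3* and *Ptgs2*, the inducible cyclooxygenase, rose by 2.22 ± 0.42 and 1.35 ± 0.064, and *Bcl2a1b*, a survival gene, was lower at -0.75 ± 0.056 (SE). *Il6* gave -1.43 ± 0.19 (SE, adjusted p = 0.00111) but with 6 to 8 counts per TBHQ library, and -0.32 with limma on log2(FPKM + 1). In the difference of TBHQ effects 1 was higher and 6 lower (against 0.825% and 1.01% of all tested genes), the latter led by *Tnf* at -0.58 ± 0.053 (SE, adjusted p = 1.76e-08) and *Cxcl2* at -0.54 ± 0.14 (SE, adjusted p = 0.000511) and the former *Ccl5* at 0.62 ± 0.11 (SE, adjusted p = 1.94e-06); *Cxcl2* and *Ccl5* were not called with limma on log2(FPKM + 0.1) (0.0695 and 0.067), nor *Cxcl2* on log2(FPKM + 1) (0.0631), and the count of 6 became 2 on log2(FPKM + 0.1), while that of 1 became 2 with no filter or without LPS replicate 3. At a mean of at least 50 counts PIC exceeded LPS most for *Il6* at 2.17 ± 0.063 and *Ccl5* at 2.05 ± 0.071 (SE), while *Csf2* gave 2.42 ± 0.29 (SE) at 77 to 118 counts against 14 to 18. LPS+TBHQ stayed above the control for 19 and was below it for 3 (against 21.2% and 22.5% of all tested genes), *Csf3* by 7.75 ± 0.42 (SE) and *Il1b* at least 54.6-fold higher, with *Cd83* -0.66 ± 0.067 and *Irf1* -0.37 ± 0.073 lowest (SE). PIC+TBHQ was above it for 23 and below for 1 (against 26.4% and 26% of all tested genes), *Csf3* by 8.18 ± 0.42 (SE) and *Il1b* at least 135-fold higher, and below for *Cd83*, -0.39 ± 0.07 (SE).

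The 8 Nrf2 target genes, which the antioxidant-responsive factor Nrf2 controls, were all higher with TBHQ alone (against 14.2% and 14.8% of all tested genes), with a median of 1.69, and 7 were higher and 0 lower with LPS (against 24% and 24.1% of all tested genes) and 6 and 0 with PIC (against 28.6% and 30.1% of all tested genes). Among those with a mean of at least 50 counts, *Hmox1*, the heme-degrading oxygenase, and *Gclm*, a subunit of the enzyme that starts glutathione synthesis, rose most with TBHQ, by 2.09 ± 0.047 and 1.82 ± 0.032 (SE). *Hmox1* and *Slc7a11*, a cystine transporter, did so with LPS, 2.33 ± 0.046 and 2.10 ± 0.035, and with PIC, 2.57 ± 0.046 and 2.51 ± 0.035 (SE). Against the stimulus alone 7 were higher and 1 lower with TBHQ before LPS (against 11.7% and 12.2% of all tested genes) and likewise before PIC (against 15.8% and 15.5% of all tested genes), with medians of 0.55 and 0.40. The gene that was lower was *Hmox1*, at -0.30 ± 0.04 (SE, adjusted p = 1.97e-08) and -0.17 ± 0.033 (SE, adjusted p = 0.00029), the latter -0.096 with total library size and still called. At that mean count *Gclm* rose most, 0.98 ± 0.031 and 1.1 ± 0.04, followed by *Slc7a11* after LPS, 0.72 ± 0.031, and *Srxn1*, a sulfiredoxin, after PIC, 0.59 ± 0.03 (SE). PIC exceeded LPS for 4 and was below it for 1 (against 14.9% and 12.8% of all tested genes), *Slc7a11* 0.42 ± 0.041, *Txnrd1*, a thioredoxin reductase, 0.29 ± 0.006 and *Gclm* -0.22 ± 0.033 (SE), the last 2 being 0.16 and -0.35 with total library size. All 8 were higher in LPS+TBHQ against control (against 21.2% and 22.5% of all tested genes) and in PIC+TBHQ against control (against 26.4% and 26% of all tested genes), led at that mean count by *Slc7a11*, 2.82 ± 0.024 and 2.93 ± 0.022, and *Hmox1*, 2.03 ± 0.042 and 2.40 ± 0.035 (SE). In the difference of TBHQ effects 0 were higher and 1 lower (against 0.825% and 1.01% of all tested genes), *Slc7a11* at -0.31 ± 0.043 (SE, adjusted p = 0.000197); the lower count was 1 or 2 in the alternatives. Scaled by totals alone, 1 was lower with PIC, 2 in PIC against LPS, and 1 was higher in the difference of effects.

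The genes most like each member were taken by the Pearson r of log2 CPM (counts scaled to library size) over the 18 libraries among 10451 genes; the libraries share 6 conditions, so r describes a common pattern over treatments. They included *Ptprj* (r of 0.982) for *Nfkb1*, and were *Clic4* and *Acsl1* (r of 0.994 and 0.99) for *Nfkb2* and *Eif4g2* and *Slfn10-ps* (r of 0.977 and 0.971) for *Rel*. For *Rela* r was lowest, with *Lamc1* and *Zbtb7a* (r of 0.931 and 0.924), and for *Relb* they were *Usp35* and *Bcar3* (r of 0.979 and 0.972). For the inhibitors they were *Hmga2* and *Fas* (r of 0.991 and 0.99) for *Nfkbia*, *Icam1* and *Cdc42ep4* (r of 0.97 and 0.958) for *Nfkbie* and *Zfp811* and *Fyb* (r of 0.986 and 0.984) for *Nfkbiz*. *Tnfaip3* was followed closest by *Traf1* and *Cflar* (r of 0.997 and 0.997), of which *Traf1* is in the list of adaptors and *Cflar* encodes a regulator of caspase activation. For *Nfkbib* they were ENSMUSG00000079190, listed with no symbol, and *Ctsz* (r of 0.99 and 0.989). *Icam1*, an adhesion molecule in the list of targets, was among those of *Nfkbie*.

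Other spans overlap members. *Psd* and *4833438C02Rik* lie on the opposite strand of *Nfkb2*, over 299 and 1317 bases, with 86 to 345 and 76 to 164 counts per library, and *Gm43430* lies on the same strand as *Nfkb1* with at most 25 counts. These are far below the 1104 to 4456 counts of *Nfkb2* and the 2388 to 6199 of *Nfkb1*. *Ccer2* overlaps *Nfkbib* and had at most 3 counts.

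Promoters from RefSeq (GRCm38.p6, 250 bases before to 50 after the start) were given for 7 of the 10 genes, *Nfkb2* with 3 and *Tnfaip3* with 2; *Nfkb1*, *Relb* and *Nfkbiz* had no entry. These coordinates may be on another build than those of the deposited genes above. The κB consensus was searched by name on both strands, with the antioxidant response element core TGACNNNGC and the interferon-stimulated response element core. A κB consensus match was in 7 of the 10 promoters of members and in 5 of the 7 genes, *Nfkb2*, *Rel*, *Nfkbia*, *Nfkbie* and *Tnfaip3*, and in 4.51% of all 32851 promoters. TGACNNNGC was in 1 member promoter, that of *Nfkbia*, and in 12.4% of all promoters, and the interferon element core in 0 of the 10 and in 3.44% of all. The 250 bases before the start are shown for *Nfkbia*, *Tnfaip3*, *Nfkb2* and *Rel*, which rose with both stimuli and fell with TBHQ before them, and for *Rela* and *Nfkbib*, the 2 of the 7 genes without a match. Both of these also rose with LPS and PIC, and *Nfkbib* was lower with TBHQ before LPS. *Nfkbie*, which has a match and is not shown, rose with PIC but was not called with LPS (0.10). Among these 7 genes a match and a rise did not always occur together, and a link between them was not tested. Capitals mark κB consensus matches on either strand; overlapping matches run together. *Tnfaip3* has a match in 1 of its 2 promoters, the one shown.
*Nfkbia* (chr12:55492648-55492897, minus strand): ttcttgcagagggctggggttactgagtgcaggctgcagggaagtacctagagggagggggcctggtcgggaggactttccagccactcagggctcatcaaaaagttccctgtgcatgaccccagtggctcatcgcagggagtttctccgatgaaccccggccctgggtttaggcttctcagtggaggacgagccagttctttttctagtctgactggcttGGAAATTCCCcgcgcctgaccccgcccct
*Tnfaip3* (chr10:19015411-19015660, minus strand): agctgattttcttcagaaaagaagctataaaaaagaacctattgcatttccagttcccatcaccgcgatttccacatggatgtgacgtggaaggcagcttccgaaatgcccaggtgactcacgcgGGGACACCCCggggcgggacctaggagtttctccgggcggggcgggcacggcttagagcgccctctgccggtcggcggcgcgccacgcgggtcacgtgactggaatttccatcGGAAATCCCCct
*Nfkb2* (chr19:46304487-46304736, plus strand): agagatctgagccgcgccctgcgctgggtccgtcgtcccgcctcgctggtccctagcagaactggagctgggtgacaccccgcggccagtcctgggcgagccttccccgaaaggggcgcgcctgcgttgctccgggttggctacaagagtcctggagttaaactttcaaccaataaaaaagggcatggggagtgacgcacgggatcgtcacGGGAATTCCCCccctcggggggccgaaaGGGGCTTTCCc
*Rel* (chr11:23770970-23771219, minus strand): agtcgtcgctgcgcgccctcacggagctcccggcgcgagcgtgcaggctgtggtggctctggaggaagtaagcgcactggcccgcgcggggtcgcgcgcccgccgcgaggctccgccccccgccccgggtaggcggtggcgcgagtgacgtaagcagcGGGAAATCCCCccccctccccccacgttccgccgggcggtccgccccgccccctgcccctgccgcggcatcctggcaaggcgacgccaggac
*Rela* (chr19:5637291-5637540, plus strand): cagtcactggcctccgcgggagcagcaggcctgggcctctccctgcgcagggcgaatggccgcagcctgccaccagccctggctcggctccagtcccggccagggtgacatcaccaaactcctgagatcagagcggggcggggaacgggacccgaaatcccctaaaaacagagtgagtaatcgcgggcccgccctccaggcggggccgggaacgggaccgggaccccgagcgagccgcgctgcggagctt
*Nfkbib* (chr7:28766645-28766894, minus strand): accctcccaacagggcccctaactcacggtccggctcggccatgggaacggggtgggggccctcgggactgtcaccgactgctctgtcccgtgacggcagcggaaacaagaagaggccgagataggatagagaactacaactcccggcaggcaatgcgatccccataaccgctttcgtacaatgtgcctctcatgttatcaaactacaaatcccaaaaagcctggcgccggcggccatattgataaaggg
The matches are descriptions of letters and not binding sites, and nothing about the factor follows from them.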

How the data were processed

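Counts per gene and FPKM (per gene length and library) were used as the authors deposited them; the labels name HISAT2 2.0.5, StringTie 1.3.3b and featureCounts 1.5.0-p3 for making the counts. The deposited FPKM were made by the authors from the same counts and gene lengths, times 1 constant per library that followed the condition, from 0.943 in the control to 1.12 with PIC. This constant ran opposite to the TMM factors, which were 1.06 to 1.07 in the control and 0.911 to 0.915 with PIC. The FPKM, and limma on them, therefore carry a scaling much like that of the main test. Depth was 14423390 to 18851626 counts per library, and each member had at least 242 counts in every library. The gene length was that of the deposited table.

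Differences were tested with edgeR 4.0.16 (R 4.3.3; TMM, filterByExpr, quasi-likelihood, 1 fit of all 18 libraries, 6 conditions) on 13691 genes, Benjamini-Hochberg adjusted over them. The code was tested on simulated data. P-values measure the spread between these samples, estimated over all 18 libraries with information shared between genes. The SE come from the 3 libraries a group alone, so an SE and its p-value need not go together. The 3 replicates of each condition are, per the study, separate biological replicates of 1 cell line. Alternatives were DESeq2 1.42.0, limma 3.58.1 on log2 FPKM, other scalings, filters and thresholds, a replicate block, and each library left out. Tables were made with Python 3.11.15, pandas 2.3.3 and numpy 2.4.6, figures with matplotlib 3.10.9.

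The members and lists were chosen with earlier results of these data known. From each list the text names, per comparison, up to 2 genes with the highest and 2 with the lowest log2 fold change among those called with a mean of at least 50 counts (*Csf2*, below that, was named after its values were seen), and the 2 genes most like each member; some items are not reported here. Protein sequence features were not analysed here.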

Additional observations from a re-analysis of the deposited data

Results flagged for a closer look

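The change with TBHQ differed between the stimuli, by a direct test of the difference, for 6 of the 10 genes. The log2 change after PIC minus that after LPS was -0.22 for *Nfkb1*, -0.25 for *Nfkb2*, -0.27 for *Rel*, -0.27 for *Nfkbia*, -0.38 for *Nfkbiz* and -0.30 for *Tnfaip3*. Each of the 6 fell with TBHQ after either stimulus. The difference is of log2 changes and was not set against the larger rise with PIC. As log2 ratios, *Nfkb1* kept 55.6% of the rise with LPS and 62.4% with PIC, and *Nfkb2* 61.2% and 69.9%. *Tnfaip3* kept 72.3% and 74.3%, and *Nfkbia* 72.7% and 71.6%. *Rel* kept 50.9% and 31.1%, and *Nfkbiz* 74.6% and 63.6%. As a linear share *Nfkbia* and *Tnfaip3* also kept less with PIC. The calls of the difference for *Nfkb1*, *Nfkb2* and *Rel* were lost at an adjusted p below 0.01, with total library size, with limma on log2(FPKM + 0.1) and without some of the libraries; those for *Nfkbia*, *Nfkbiz* and *Tnfaip3* were kept.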

How the results depend on the processing

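Of 90 member results (10 genes in 9 comparisons), 73 kept their direction and call in every setting. Over 10 other settings 864 values kept both, 34 lost a call, 1 gained it and 1 changed sign. Over 18 libraries left out in turn, 1574 kept both, 37 lost a call and 9 changed sign. With CPM at least 14 of 15 pairs of conditions kept their order.

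Genes above the threshold of the study, 184 with LPS, 370 with PIC, 11 with TBHQ, 115 with LPS+TBHQ and 241 with PIC+TBHQ, became 96, 184, 4, 62 and 121 with a mean of at least 50 counts, and 56, 135, 1, 29 and 68 with limma on log2(FPKM + 1). With limma on log2(FPKM + 0.1) TBHQ gave 6. Members above it with LPS became 0 with limma on log2(FPKM + 1).

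At an adjusted p below 0.01, genes called higher became 1295 with TBHQ, 1045 in LPS+TBHQ against LPS and 1428 in PIC+TBHQ against PIC, and genes lower in PIC against LPS 1090. Members higher with TBHQ became 3.

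With total library size, PIC against control gave 2379 higher and 6635 lower, PIC against LPS 985 and 4373, PIC+TBHQ against control 2364 and 5515, and PIC+TBHQ against PIC 3398 higher. *Rela* in PIC+TBHQ against PIC became 0.0495.

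For the difference of TBHQ effects, genes higher and lower became 55 and 60 at 0.01, 235 and 74 with total library size and 56 and 91 with limma on log2(FPKM + 0.1). Higher became 62 with limma on log2(FPKM + 1), and lower 237 with no filter and 283 with DESeq2. Members lower became 3 at 0.01, 3 with total library size and 3 with limma on log2(FPKM + 0.1).

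With 1 library left out, members higher with TBHQ ranged from 3 to 6 and genes above the threshold from 7 to 12. For the difference of effects, genes higher ranged from 70 to 121 and lower from 92 to 241. *Relb* with TBHQ ranged from -0.0775 to 0.0643 and *Rela* in PIC+TBHQ against PIC from -0.0812 to 0.0127. In the difference of effects *Relb* ranged from -0.0281 to 0.0747 and *Nfkbie* from -0.0626 to 0.1462.

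With a replicate block, members lower in PIC+TBHQ against PIC were 6, not 7, since *Nfkbie* gave -0.22 at an adjusted p of 0.0536; no other member call changed. Libraries share only a number: correlations of 45 same-number pairs had a median of 0.026 (-0.0719 to 0.142), those of 90 other pairs -0.0114, and 9 of 18 libraries were closest to their own number.

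The alternatives for list genes and for the kept share were chosen after seeing the data; with total library size the median log2 ratio kept was 59.8% for LPS and 73.4% for PIC. Of 131 named list results 115 kept their call in every setting, 77 values lost it and 0 changed sign, and 55 of 90 list counts stayed within 1.5 times. Limits are the 3 libraries a condition, RNA without protein, the unstated vehicle of the groups without TBHQ, and the harvest or stimulation times not stated alike for all groups. The cause of the scaling differences was not tested.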
